A study of Mus musculus with 16 samples.

Results

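The H19 long RNA and 9 other imprinted genes were followed in mIMCD3 cells treated with doxycycline (DOX) or its vehicle. The set holds H19, Igf2, Igf2r, Cdkn1c, Meg3, Peg3, Peg10, Plagl1, Grb10 and Dlk1, which are 10 of the 54393 genes of the deposited count table. They were chosen because H19 was lower after 6 days of DOX, so the 6-day values of these 10 genes are given below as a description and without a test. The 3-day comparison was not the reason for that choice and was tested. The choice was still made with earlier results of these data known.

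The mIMCD3 line is a mouse kidney epithelial line from the inner medulla of a mouse carrying simian virus SV40 sequence, and its genotype is labelled wild type. Cells were grown on permeable filters for 10 days and then received fresh medium every day with either DOX at 2 μg/mL or the vehicle DMSO for 3 or 6 days. The 4 groups (DMSO 3 days, DOX 3 days, DMSO 6 days and DOX 6 days) had 4 libraries of poly(A)-selected RNA each, 16 in all. All come from 1 cell line with no change of genotype, so the spread between libraries is that between cultures or preparations of the same line, and the labels do not say which. Libraries held between 16933343 and 23960860 estimated counts, and a floor of 3 counts corresponded to between 0.125 and 0.177 CPM (counts scaled to library size). All 8 epithelial markers examined were expressed, with a summed level of at least 1650 TPM (abundance scaled to library size and transcript length) in every library. Of 9 collecting duct markers, 2 (Gata3 and Hsd11b2) reached the expression filter, the water channel genes Aqp2, Aqp3 and Aqp4 did not, and the summed level was at most 7.37 TPM in any library.

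An imprinted gene is transcribed mainly from the copy inherited from 1 parent. The choice is set by DNA methylation laid down in the egg or the sperm at imprinting control regions, and it is kept through cell division by maintenance methylation. Many imprinted genes act on growth: genes expressed from the paternal copy often promote growth of the embryo and placenta, and genes expressed from the maternal copy often restrain it. H19, Igf2r, Cdkn1c, Meg3 and, in most tissues, Grb10 are expressed from the maternal copy, while Igf2, Dlk1, Peg3, Peg10 and Plagl1 are expressed from the paternal copy. Reads of the 2 copies were not separated in these data and methylation was not measured, so the values below are total transcript levels.

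H19 is also the host transcript of the microRNA miR-675. The mature arms are shown because they are the annotated small RNA products of the gene that heads this set, with the seed (bases 2 to 8, which pair with target RNAs) in capitals. In the hairpin, the capitals mark the mature arms. Sequences are from RefSeq on GRCm38.p6. The hairpin lies at chr7:142577064-142577147 on the minus strand, inside exon 1 of the H19 transcripts H19-202 and H19-205 and inside exon 2 of H19-206 in GENCODE M21. The Mir675 entry had 0 counts in all 16 libraries. Mature microRNAs are not captured by poly(A) selection, so their level was not measured.
mmu-miR-675-5p: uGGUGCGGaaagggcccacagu
mmu-miR-675-3p: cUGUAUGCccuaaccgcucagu
Mir675 hairpin: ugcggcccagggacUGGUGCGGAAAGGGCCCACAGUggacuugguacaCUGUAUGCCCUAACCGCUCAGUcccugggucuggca

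The seeds of the arms differ, so each arm forms a seed group of its own. For the coding genes, promoters are shown for Peg3 and Grb10, the called members with a RefSeq promoter entry, with each CpG (the dinucleotide that carries methylation) in capitals. Each window covers 250 bases before and 50 bases after an annotated start. A promoter entry was matched for 7 of the 10 genes; H19, Cdkn1c and Peg10 had none. The Peg3 window is chr7:6730370-6730669 and the Grb10 window is chr11:12037371-12037670, both on the minus strand.
Peg3 promoter: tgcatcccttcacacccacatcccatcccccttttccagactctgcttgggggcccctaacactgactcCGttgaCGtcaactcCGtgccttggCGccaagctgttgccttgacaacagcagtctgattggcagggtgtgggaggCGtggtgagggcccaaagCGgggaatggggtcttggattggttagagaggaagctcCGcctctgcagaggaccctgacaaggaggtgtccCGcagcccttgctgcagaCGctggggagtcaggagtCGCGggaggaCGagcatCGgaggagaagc
Grb10 promoter: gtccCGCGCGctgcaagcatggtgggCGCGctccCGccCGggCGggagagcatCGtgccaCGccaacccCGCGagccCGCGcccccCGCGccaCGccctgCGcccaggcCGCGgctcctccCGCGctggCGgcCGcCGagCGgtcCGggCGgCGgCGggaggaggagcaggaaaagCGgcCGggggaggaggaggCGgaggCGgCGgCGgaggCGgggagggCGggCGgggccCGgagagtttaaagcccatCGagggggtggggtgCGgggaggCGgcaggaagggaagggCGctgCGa

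The Peg3 window held 13 CpG, a number reached by 37.9% of all 32851 promoter windows of the same length. The Grb10 window held 45 CpG, which 1.93% of windows reached, and the median over all windows was 7. A further Grb10 start had 9 CpG. Among the other genes, the Igf2r window held 34 CpG and the Plagl1 window 26, while the 4 Igf2 windows held between 2 and 24. These counts describe the sequence alone.

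In DMSO, the 10 genes covered a wide range of levels. Ordered by mean TPM over the 8 DMSO libraries, Peg3 was highest at 13.8 ± 2.43 (SD, n = 8), followed by Igf2r at 11.0 ± 1.31, Cdkn1c at 6.97 ± 1.51, Grb10 at 5.82 ± 0.778, Plagl1 at 2.76 ± 0.534 and Peg10 at 1.95 ± 0.295. H19 followed at 0.629 ± 0.106 TPM, and Igf2, Meg3 and Dlk1 were at 0.0806 ± 0.131, 0.028 ± 0.0362 and 0.0171 ± 0.0322 TPM. TPM is scaled for transcript length, so these levels can be compared between genes. Of the 9 neighbouring pairs in this order, 4 had separate ranges over the 8 libraries: Igf2r above Cdkn1c, Grb10 above Plagl1, Peg10 above H19, and H19 above Igf2. The other 5 pairs overlapped, so their order is not resolved beyond the spread. On CPM divided by effective length the order was the same. H19 ranked 14316 among the 53354 genes of the TPM table. Of a wider list of 57 imprinted genes, 27 had a mean of at least 1 TPM in DMSO and 14 at least 10 TPM, and Gnas, which encodes the stimulatory G protein alpha subunit, was the most abundant at 552 TPM.

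**Figure D1:**
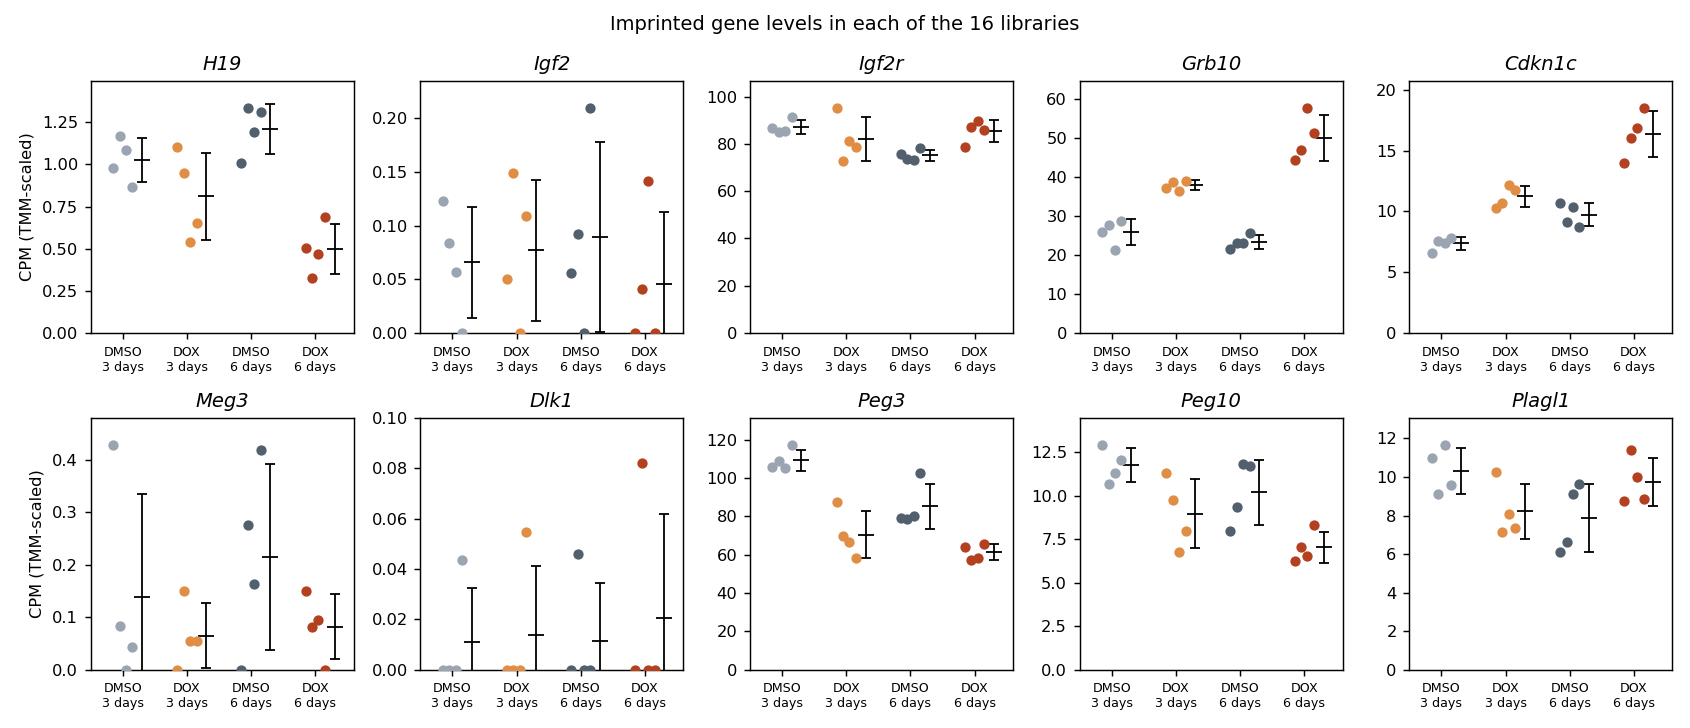
TMM-scaled CPM of each of the 10 imprinted genes in the 16 libraries, with 1 panel per gene and its own axis from 0. Points are libraries, horizontal bars with error bars are the group mean and SD (n = 4). H19 in DOX at 6 days sits between 0.329 and 0.687 CPM, below all DMSO libraries of that time, while Grb10 and Cdkn1c sit above theirs.

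Of the 10 genes, 7 had at least 1 CPM in at least 4 libraries and were among the 13234 genes tested. Igf2, Meg3 and Dlk1 reached 1 CPM in 0 libraries. H19 reached it in 7 libraries: 2 of DMSO and 1 of DOX at 3 days, 4 of DMSO and 0 of DOX at 6 days. H19 therefore passed the filter mainly through the groups where it was high.

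DOX replicate 1 at 3 days stood apart from the other 3 libraries of its group for several of these genes. It was the highest of its group for H19, Igf2r, Peg3, Peg10 and Plagl1. For H19 (1.10 CPM, against 0.542 to 0.946 in the other 3), Peg10 (11.3, against 6.78 to 9.76) and Plagl1 (10.3, against 7.17 to 8.08) it lay inside the DMSO range. For Cdkn1c and Grb10 it lay with the other DOX libraries. Over 2851 genes called at 6 days outside this set, its 3-day deviation followed the 6-day change with a slope of 0.588, against 0.558 to 0.599 in the other 3. Without it, 2295 genes were called at 3 days in place of 1658. Grb10, Cdkn1c and Peg3, the called genes of the set, were still called.

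H19 (chr7:142575529-142578143, minus strand, a lincRNA of the Igf2 domain) restrains growth in the embryo and has been described as a decoy for let-7 microRNAs. Its estimated counts were 16, 28, 19 and 20 in DMSO at 3 days and 22, 19, 10 and 12 in DOX at 3 days. At 6 days they were 18, 29, 22 and 25 in DMSO and 10, 8, 10 and 14 in DOX. No DOX library at 6 days reached the lowest DMSO library of that time, while at 3 days the ranges overlapped, with DOX replicates 1 and 2 inside the DMSO range.

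Summed over a group, H19 had 83 counts in DMSO and 63 in DOX at 3 days, and 94 and 42 at 6 days. As CPM these were 1.03, 0.790, 1.24 and 0.495. The ratio of DOX to DMSO was 0.765 at 3 days with a 95% exact interval from 0.543 to 1.07, and 0.400 at 6 days with an interval from 0.271 to 0.581. These intervals pool the 4 libraries of each group and cover counting error only. The 6-day ratio and its interval are a description, because H19 was chosen for its fall at 6 days. In bulk RNA, fewer cells that express a gene and less of its RNA per cell cannot be told apart. At 3 days the fitted log2 fold change of H19 was −0.33 ± 0.253 (SE, n = 4 against 4) and did not pass the test (edgeR adjusted p = 0.700). Its 95% interval ran from −0.86 to 0.20 and holds 0, so a difference at 3 days was not detectable at this depth. Leaving out each library in turn gave −0.51 to −0.18. At 6 days the fitted value was −1.29, with an interval from −1.84 to −0.74 that is shown as a description. In DMSO, H19 was 1.03 ± 0.131 TMM-scaled CPM at 3 days and 1.21 ± 0.149 at 6 days, with overlapping ranges.

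Meg3, the maternal long RNA of the Dlk1 domain on chromosome 12 and a growth-restraining transcript, was near the detection limit. It had at most 8.09 estimated counts in any library and 0 in 4 libraries. Its CPM lay between 0 and 0.429 in DMSO and between 0 and 0.151 in DOX, so no difference was detectable at this depth.

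The growth-promoting ligands were at or near 0 in every group. Igf2 (chr7:142650766-142666816), the insulin-like growth factor that shares enhancers with H19, had between 0 and 4.14 estimated counts per library, with group sums of 5, 6, 7.18 and 4 in DMSO and DOX at 3 days and DMSO and DOX at 6 days. The overlapping gene Gm49394, which shares 62.8% of the exonic bases of Igf2 on the same strand, had 0 counts in all 16 libraries. Dlk1, a membrane protein related to the Notch ligands, had 5 counts in total, in 1 library of each group. No fold change is given for these genes, since both groups were at or close to the floor of 3 counts.

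Igf2r (chr17:12682406-12769664) encodes the receptor that carries IGF2 and mannose 6-phosphate-tagged enzymes to lysosomes. Its CPM was 86.8, 85.1, 85.7 and 91.5 in DMSO and 95.2, 72.9, 81.3 and 78.9 in DOX at 3 days, which overlapped. The log2 difference was −0.09 ± 0.0661 with an interval from −0.23 to 0.05, and it did not pass the test (edgeR adjusted p = 1). With the length trend removed the sign changed, to 0.15, and the test was again not passed (adjusted p = 1). At 6 days the values were 75.7, 73.7, 73.1 and 78.1 in DMSO and 78.8, 87.3, 89.7 and 85.9 in DOX. The CPM ranges at 6 days were apart, by less than 1 CPM, with a fitted log2 difference of 0.19, whereas the TPM ranges overlapped.

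Grb10 (chr11:11930508-12038683) encodes an adaptor that binds the insulin and IGF1 receptors and dampens their signalling. At 3 days its CPM was 25.8, 27.7, 21.2 and 28.7 in DMSO and 37.2, 38.7, 36.3 and 39.0 in DOX. Every DOX library lay above every DMSO library. Grb10 rose with a log2 fold change of 0.54 ± 0.0885 (1.46-fold, edgeR adjusted p = 0.00629), and without any 1 library the value stayed between 0.46 and 0.60 with an adjusted p of at most 0.0327. At 6 days its CPM was 21.4, 23.1, 22.9 and 25.6 in DMSO and 44.2, 46.9, 57.6 and 51.2 in DOX, a fitted log2 difference of 1.10. The 3-day call was kept in 18 alternatives but depended on the scale. On log2(TPM + 1) the median of all genes was −0.15 at 3 days. On deposited TPM the ranges overlapped, with 7.30 as the highest DMSO and 7.21 as the lowest DOX library, and limma on log2(TPM + 1) gave 0.33 (adjusted p = 1).

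Cdkn1c (chr7:143458339-143461050) encodes the cyclin-dependent kinase inhibitor p57. Its CPM was 6.61, 7.601, 7.44 and 7.82 in DMSO and 10.3, 10.7, 12.1 and 11.8 in DOX at 3 days, and the groups did not overlap. Cdkn1c rose with a log2 fold change of 0.60 ± 0.10 (1.52-fold, edgeR adjusted p = 0.00432). Leaving out each library in turn gave 0.56 to 0.64, with an adjusted p of at most 0.0182, while limma on log2(TPM + 1) gave 0.42 (adjusted p = 0.566) with TPM ranges that were also apart. The median of all genes on that scale was −0.15 at 3 days, and 18 alternatives kept the call. At 6 days the CPM was 10.7, 9.16, 10.4 and 8.75 in DMSO and 13.97, 16.02, 16.9 and 18.5 in DOX, a fitted log2 difference of 0.75. Cdkn1c had DMSO levels at 6 days wholly above those at 3 days, as 6.85% of tested genes did. That difference of 0.40 ± 0.102 did not pass the adjusted test (edgeR adjusted p = 1, unadjusted p = 0.0322). The antisense gene Gm44732, which overlaps 30.7% of its exonic bases, had between 0 and 3 counts.

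Peg3 (chr7:6703892-6730431) encodes a zinc finger protein and was the most abundant of the 10 genes. Its CPM was 106, 109, 105 and 117 in DMSO and 87.3, 69.7, 66.5 and 58.5 in DOX at 3 days. All DOX libraries were lower than all DMSO libraries, and Peg3 fell by 0.63 ± 0.0998 on the log2 scale (0.645-fold, edgeR adjusted p = 0.00243). Leaving out each library in turn gave values from −0.75 to −0.55, with an adjusted p of at most 0.0110. At 6 days its CPM was 79.2, 78.9, 80.2 and 103 in DMSO and 63.8, 57.2, 58.2 and 65.6 in DOX, which also did not overlap, with a fitted log2 difference of −0.48.

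Peg3 is a long transcript, with an effective length 3.73 times that of the median tested gene, and long genes behaved differently between the 3-day libraries. The slope of log2 CPM deviations per doubling of effective length was between 0.022 and 0.069 in the DMSO libraries at 3 days, −0.094, −0.080 and −0.099 in DOX replicates 2, 3 and 4, and 0.022 in DOX replicate 1. With a length trend removed from each library, the 3-day value of Peg3 was −0.40 (edgeR adjusted p = 0.0775), so the call was lost. Grb10, with a relative length of 2.24, and Cdkn1c, at 0.656, kept their calls in that fit.

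Plagl1 (chr10:13060504-13131694), a zinc finger transcription factor that regulates other imprinted genes, and Peg10 (chr6:4747306-4760517), a retrotransposon-derived gene of the placenta, were lower in level. Plagl1 CPM was 11.0, 9.10, 11.7 and 9.60 in DMSO and 10.3, 7.17, 8.08 and 7.37 in DOX at 3 days. It was 6.10, 6.63, 9.10 and 9.64 in DMSO and 8.75, 11.4, 9.99 and 8.84 in DOX at 6 days. The groups overlapped at both times. The fitted log2 differences of Plagl1 had opposite signs, −0.32 ± 0.143 at 3 days (edgeR adjusted p = 0.491) and 0.31 at 6 days, and the difference between the times was not tested. The 3-day interval of Plagl1 ran from −0.62 to −0.02, but the test with its 1.2-fold threshold was not passed.

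Peg10 CPM was 12.9, 10.7, 11.3 and 12.1 in DMSO and 11.3, 9.76, 6.78 and 7.98 in DOX at 3 days. At 6 days it was 7.95, 9.34, 11.8 and 11.7 in DMSO and 6.23, 7.02, 6.55 and 8.30 in DOX. In both comparisons 1 or more DOX libraries fell inside the DMSO range. The 3-day log2 difference of −0.38 ± 0.142 did not pass the test (edgeR adjusted p = 0.312), and the 6-day fitted value was −0.54.

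Among the 7 tested genes, 2 rose (Grb10 and Cdkn1c), 1 fell (Peg3, whose call is lost with the length trend removed) and 4 did not pass the test at 3 days. Over all 13234 tested genes, 12.5% were called at 3 days, 5.30% higher and 7.22% lower. No test of 3 in 7 against this share was made. Ranges of CPM were apart for the same 3 genes at 3 days, where 18.8% of all tested genes were wholly higher and 19.8% wholly lower in DOX. At 6 days the CPM ranges were apart for 5 of the 7 (Grb10, Cdkn1c and Igf2r higher, H19 and Peg3 lower), where 22.1% of all tested genes were wholly higher and 20.9% wholly lower. Of all tested genes, 21.6% were called in that comparison. No p is given for this count, because the set was chosen from that comparison. DMSO at 6 days against DMSO at 3 days called 0 genes of 13234 by edgeR, with 172 genes (1.30%) at an unadjusted p under 0.05, and the values of Peg3 (−0.36), Plagl1 (−0.39) and Igf2r (−0.22) did not pass the test (adjusted p = 1 for each). The DMSO ranges of CPM of Peg3 and Igf2r were wholly lower at 6 days, as were those of 5.39% of tested genes. On TPM the DMSO ranges of both genes overlapped.

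**Figure D2:**
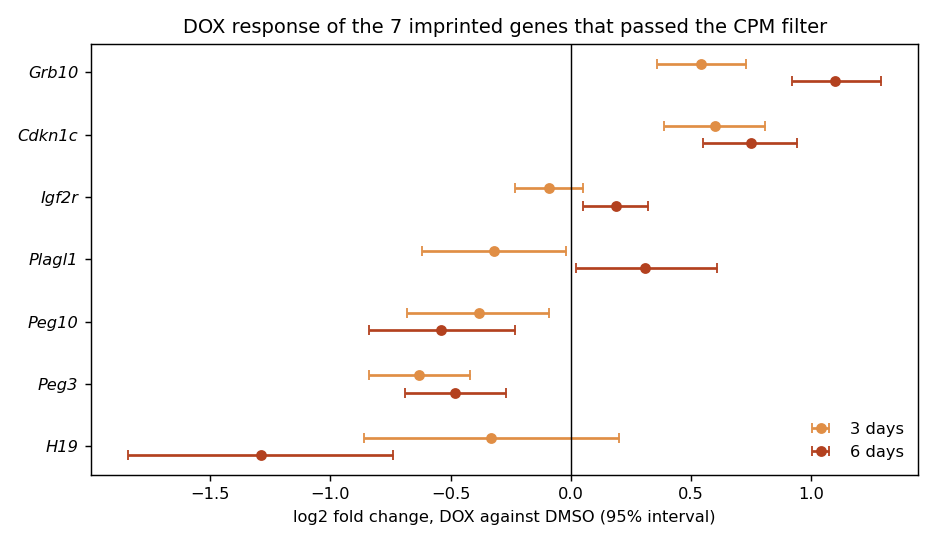
Log2 fold change of DOX against DMSO for the 7 tested imprinted genes at 3 days (orange) and 6 days (red), with 95% intervals from the edgeR fit. At 3 days the intervals of Grb10, Cdkn1c and Peg3 lie clear of 0. Those of Peg10 (−0.68 to −0.09) and Plagl1 (−0.62 to −0.02) also exclude 0, though neither gene passed the test with its 1.2-fold threshold. The H19 interval runs from −0.86 to 0.20. The 6-day values are a description.

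The chromosome 7 domain around H19 was described from a list of 11 genes, of which 4 were tested. Syt8 (chr7:142434850-142440396), a synaptotagmin gene that lies downstream of H19 across a gap of 135 kb, had the highest correlation with H19 of all 13233 other tested genes (Pearson r 0.930, Spearman rho 0.859, over 16 libraries). The libraries share 4 groups, and with the group means removed r was 0.78. Syt8 is the maximum over all these genes, and the 16 libraries include the 6-day ones by which H19 was chosen. Both r values are therefore a description. Syt8 CPM at 3 days was 16.1, 18.8, 16.5 and 16.8 in DMSO and 13.1, 10.9, 8.89 and 10.1 in DOX. Syt8 fell by 0.67 ± 0.126 on the log2 scale at 3 days (edgeR adjusted p = 0.00610). At 6 days it was 19.7, 17.4, 17 and 18.1 in DMSO and 7.74, 4.97, 7.82 and 8.64 in DOX, a fitted value of −1.31. Its counts, between 121 and 451 per library, are higher than those of H19. Its 3-day call passed in 18 of the 19 alternatives and was lost by limma on log2(TPM + 1) (−0.93, adjusted p = 0.0567).

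The other genes of the region had unlike values. Tnni2, a troponin gene between Syt8 and H19 that did not reach the filter, had 9, 28, 11 and 11 counts in DMSO and 7, 5, 5 and 9 in DOX at 3 days, then 18, 18, 16 and 20 in DMSO and 3, 8, 4 and 3 in DOX at 6 days. The 6-day ranges were apart and the 3-day ranges met at 9 counts. Mrpl23, a mitochondrial ribosomal protein gene 34.8 kb from H19, had a 3-day log2 difference of 0.45 ± 0.121 (edgeR adjusted p = 0.120). Ctsd, the lysosomal protease cathepsin D at 187 kb, had −0.20 ± 0.0584 (adjusted p = 1). Lsp1 had at most 5 counts per library, Ascl2 at most 2 and Th at most 1, and Tnnt3 and Ins2 had 0 in all 16 libraries.

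**Figure D3:**
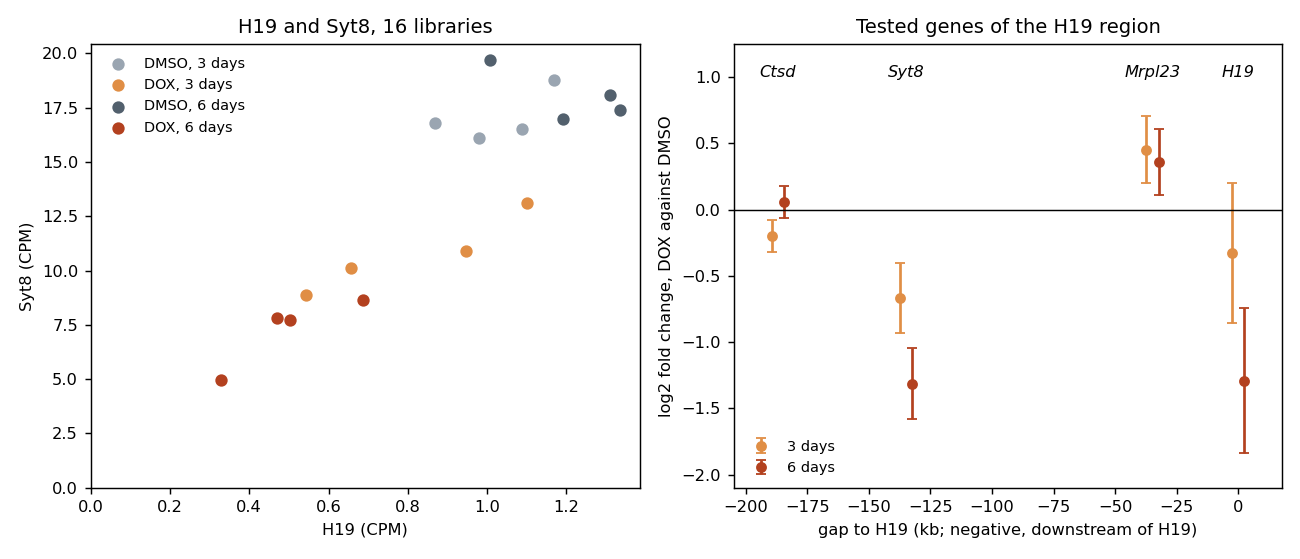
Left, CPM of H19 (x axis) and Syt8 (y axis) in the 16 libraries, coloured by group; right, log2 fold change of DOX against DMSO with 95% intervals for the 4 tested genes of the H19 region, placed by their gap to H19 in kb. The group means of Syt8 and H19 are both lowest in DOX at 6 days, although H19 libraries there overlap those of DOX at 3 days. Mrpl23, which lies between Syt8 and H19, has positive values at both times.

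After Syt8, the genes most like H19 were Cyp3a13 (r 0.918), Ccbe1 (0.899) and Gm17746 (0.898), and the most opposite were Apobec1 (−0.916), Itpka and Dzip1 (both −0.894), Faxc (−0.889) and Sfxn2 (−0.884). Cyp3a13 is a cytochrome P450 gene and Apobec1 a cytidine deaminase gene. With group means removed, r was between 0.58 and 0.83 for Syt8 and these 3 genes and between −0.69 and −0.50 for the others. Within the imprinted set, r with H19 was 0.81 for Peg10, 0.74 for Peg3, −0.19 for Plagl1, −0.28 for Igf2r, −0.75 for Cdkn1c and −0.80 for Grb10. After removal of group means Peg10 (0.63) and Peg3 (0.58) had positive values, and Cdkn1c had −0.26 and Grb10 0.12. These are descriptions over libraries that share their treatment, depth and preparation.

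Of the 57 imprinted genes of the wider list, 33 were tested. At 3 days 3 rose, 4 fell and 26 did not pass the test, against the 12.5% of all tested genes called; the list median of −0.01 lay beside 0.00 over all genes. Outside the 7 genes above, 26 were tested, of which 1 rose and 3 fell. Impact, which restrains activation of the kinase GCN2, rose by 0.46 ± 0.065 (edgeR adjusted p = 0.00893), from 25.5 ± 1.73 to 35.0 ± 2.25 CPM (n = 4 each). Tnfrsf23, a decoy receptor gene of the Cdkn1c cluster, fell by 0.82 ± 0.0912 (adjusted p = 2.22e-05), from 72.3 ± 6.15 to 41.1 ± 4.11 CPM. Mest, a paternally expressed hydrolase gene, fell by 0.54 ± 0.0987 (adjusted p = 0.0127), and Peg13, a long RNA inside Trappc9, fell by 0.86 ± 0.161 (adjusted p = 0.00274). The call of Impact was lost by DESeq2 (adjusted p = 0.0668) and by limma on log2(TPM + 1) (0.04, adjusted p = 1), and that of Mest by DESeq2 (adjusted p = 0.168), by limma on log2(TPM + 1) (−0.57, adjusted p = 0.0542) and without DOX replicate 4 (adjusted p = 0.0534). At 6 days the log2 values were 0.76 for Impact, −1.27 for Tnfrsf23, −1.21 for Mest and −0.23 for Peg13. Mest shares 23.1% of its exonic bases with Copg2 on the opposite strand, and the libraries came from a directional kit, but whether salmon counted by strand is not given in the sources used here. In the cluster of Cdkn1c, Cdkn1c rose and Tnfrsf23 fell at 3 days. Kcnq1ot1 (−0.18, edgeR adjusted p = 0.963) and Phlda2 (0.35, adjusted p = 0.394) did not pass the test. Neither did Kcnq1 (−0.26, edgeR adjusted p = 0.702) or Slc22a18 (−0.22, adjusted p = 0.934).

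**Figure D4:**
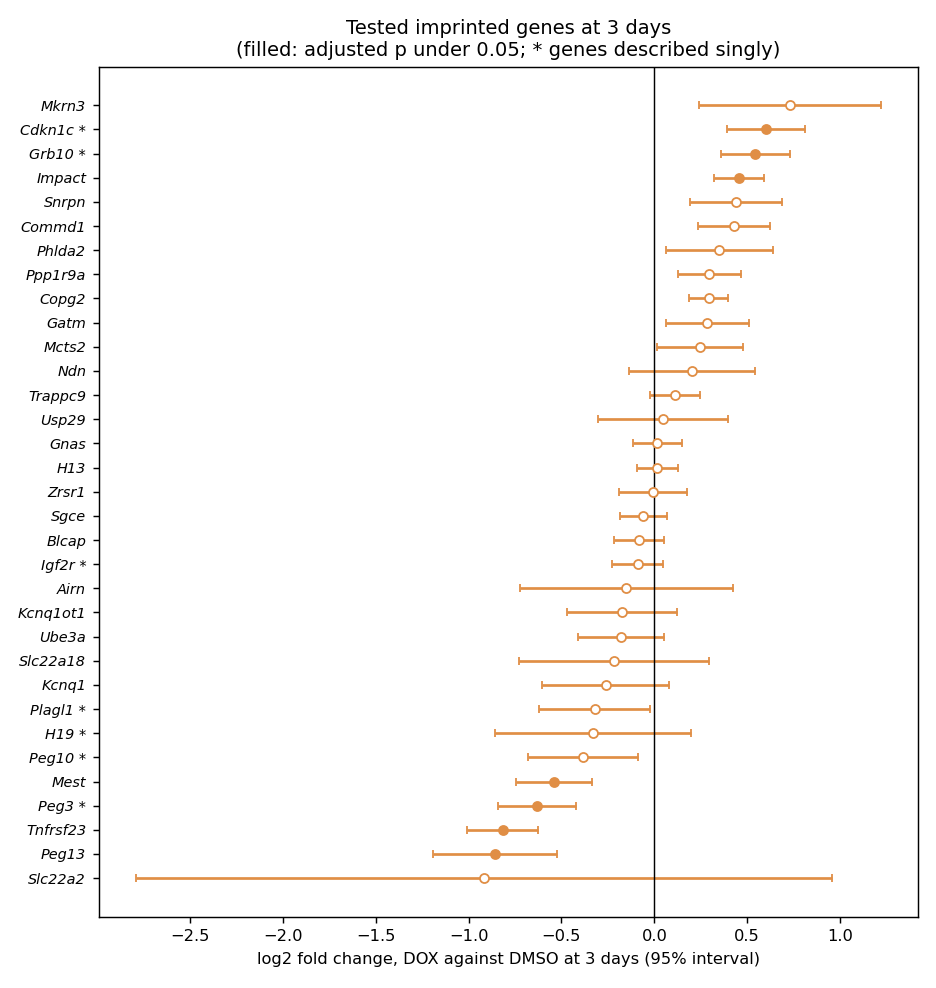
Log2 fold change of DOX against DMSO at 3 days, with 95% intervals, for the 33 tested genes of the imprinted list, ordered by value. Filled points (3 higher, 4 lower) passed the edgeR test at an adjusted p under 0.05, asterisks mark the genes of the set described singly, and Slc22a2, with the widest interval, had between 1 and 29 counts per library.

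Of 18 listed factors that set or keep imprints through division, 15 were tested and 1 was called at 3 days, where 12.5% of all tested genes were: Uhrf1, which recruits the maintenance methyltransferase to newly copied DNA, fell by 0.44 ± 0.0492 (edgeR adjusted p = 0.00228), from 147 ± 3.34 to 108 ± 6.12 CPM. With the length trend removed, Uhrf1 was at −0.34 (adjusted p = 0.0871) and the call was lost. The list median was −0.09. Dnmt1, the maintenance methyltransferase itself, had −0.30 ± 0.0551 (adjusted p = 0.392). Ctcf, the insulator protein that binds the H19 control region, had −0.09 ± 0.0626 (adjusted p = 1). Zfp57, which protects methylated control regions, had 0.38 ± 0.084 at 3 days (adjusted p = 0.162) and 0.80 at 6 days. At 6 days 1 of the 15 was called higher and 2 lower, where 21.6% of all tested genes were called.

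In IGF signalling, the ligand genes Igf1, Igf2, Ins1 and Ins2 did not reach the filter, and 12 of 22 listed genes were tested. At 3 days Grb10 rose and 3 genes fell, against the same 12.5% background. Igfbp4, which encodes an IGF-binding protein, had a CPM of 35.1, 28.3, 32.3 and 33.9 in DMSO and 8.51, 7.97, 9.65 and 13.1 in DOX. It fell, with a log2 fold change of −1.73 ± 0.142 (edgeR adjusted p = 1.36e-07), and the fitted value at 6 days was −2.23. Igfbp5, another binding protein, fell by 1.10 ± 0.250 (adjusted p = 0.00866), and Irs2, a substrate of the insulin and IGF1 receptors, fell by 0.59 ± 0.0948 (adjusted p = 0.00409). Igfbp4 passed in all 19 alternatives, Irs2 in 16 of 19 and Igfbp5 in 16 of 18. Irs2 lost its call with the length trend removed (−0.37, edgeR adjusted p = 0.238), with and without a replicate block. By limma on log2(TPM + 1) Irs2 was also not called (−0.67, adjusted p = 0.067). Igfbp5 lost its call with the length trend removed and the replicate block added (edgeR adjusted p = 0.0593). The list median was −0.17. The receptors did not pass the test at 3 days: Igf1r had −0.26 ± 0.0836 (adjusted p = 0.684) and Insr −0.01 ± 0.0792 (adjusted p = 1).

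Of 15 genes described as binding or being regulated by H19 or miR-675, 13 were tested, 1 rose and 1 fell at 3 days, where 12.5% of all tested genes were called (5.30% higher and 7.22% lower). The list median was −0.07. Myc, the growth regulator, rose by 0.43 ± 0.0491 (edgeR adjusted p = 0.00369), and Cdc6, a replication licensing factor, fell by 0.54 ± 0.0666 (adjusted p = 0.000929). Hmga2, a chromatin protein gene under let-7 control, had −0.26 ± 0.111 (adjusted p = 0.668) at 3 days and −0.64 at 6 days. Of the 6 cyclin-dependent kinase inhibitor genes beside Cdkn1c, 0 were called higher and 1 lower at 3 days, where 5.30% of all tested genes were called higher and 7.22% lower, and with Cdkn1c the list median was 0.05. Cdkn2c fell by 0.71 ± 0.0703 (adjusted p = 1.14e-05), and Cdkn1a, which encodes p21, had −0.36 ± 0.0557 (adjusted p = 0.0833). Of 9 tested Notch ligand and receptor genes, the wider family of Dlk1, 4 fell at 3 days, where 7.22% of all tested genes did: Dll4 by 1.39 ± 0.310, Notch4 by 0.96 ± 0.281, Notch2 by 0.61 ± 0.0859 and Jag1 by 0.50 ± 0.0947 (edgeR adjusted p = 0.00579, 0.0434, 0.00106 and 0.0254). The list median was −0.50. With the length trend removed, Notch4, Notch2 and Jag1 lost their calls (adjusted p = 0.103, 0.121 and 0.525), and Notch4 passed in 5 of 18 alternatives, Jag1 in 11 of 19 and Notch2 in 17 of 19. Jag1 was also not called by DESeq2 (adjusted p = 0.229). By limma on log2(TPM + 1) Myc, Dll4, Igfbp5 and Peg13 were not called (adjusted p = 1, 1, 0.298 and 0.234). In DMSO, Igfbp5 (0.96 TPM) and Peg13 (1.14 TPM) were near the added 1 TPM, which shrinks their changes on that scale. The median of all genes on it was −0.15 at 3 days.

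Other measures moved with DOX as well, and their part in the imprinted gene values was not tested. Proliferation markers summed to between 1010 and 1150 TPM in DMSO and between 874 and 965 in DOX at 3 days, and to between 1190 and 1300 and between 806 and 835 at 6 days. Of these 8 genes, 2 fell at 3 days (Mki67 by 0.82 ± 0.0825 and Top2a by 0.42 ± 0.0571, the latter not called with the length trend removed, at −0.28 and an adjusted p of 0.675) and 7 were called lower at 6 days. Of all tested genes, 7.22% were called lower at 3 days and 11.6% at 6 days. The median log2 fold change of the proliferation list was −0.03 at 3 days and −0.67 at 6 days. TPM sums at 3 days should be read beside a median of −0.15 over all genes on log2(TPM + 1). Epithelial markers summed to between 2250 and 2500 TPM in DMSO and between 1650 and 1980 in DOX at 3 days. At 6 days the sums were 2450 to 2730 and 1710 to 1910 TPM. Of these 8 genes, 2 were called lower at 3 days and 3 at 6 days, beside the shares above. The list medians were −0.23 and −0.22. Cdh1, called at 3 days, was not called with the length trend removed (−0.31, edgeR adjusted p = 0.387). Fibroblast markers summed to at most 1.15 TPM in any library and endothelial markers to at most 1.46. Of 6 leukocyte markers, Cd68 and Csf1r were tested and fell, by 0.96 ± 0.0904 and 0.82 ± 0.168 at 3 days, and the summed list lay between 26.6 and 33.2 TPM in DMSO and between 11.3 and 17.6 in DOX.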

How the data were processed

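From filter-grown mIMCD3 cells, 16 libraries of poly(A)-selected RNA were prepared with a directional kit and sequenced by the authors as paired reads. The authors quantified transcripts with salmon and deposited 2 gene tables: estimated counts, which are not normalized, and TPM. Whether strand was used in counting is not given in the sources used here. All 54393 identifiers of the count table are in GENCODE M21 (GRCm38), and 1039 of them are not in the TPM table. Groups came from the sample labels.

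Counts were rounded, the tests were limited to the 13234 genes that reached 1 CPM in 4 or more libraries, library sizes were scaled by TMM, and 1 robust quasi-likelihood model with a mean per group was fitted to all 16 libraries with edgeR 4.0.16 in R 4.3.3. The contrasts were DOX minus DMSO at each time and the 6-day minus the 3-day DMSO cultures, tested two-sided by glmTreat with a fold threshold of 1.2. Benjamini-Hochberg adjustment ran across the whole table of tested genes, and a call needed an adjusted p under 0.05. The SE was the fold change divided by the square root of F. Levels were compared between genes on deposited TPM. The script was checked on simulated counts. Alternatives included DESeq2 1.42.0, limma 3.58.1 on log2(TPM + 1), other filters and scalings, a length offset, a replicate block and each library left out in turn.

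The 10 genes and all lists were chosen with earlier results of these data known. Named were all 10 genes, up to 6 other genes per list called at 3 days, all genes of the H19 region, and the 5 highest and 5 lowest Pearson correlations of log2 CPM with H19, of which 1 is not reported here. Other genes of a list named without passing the test were chosen for their role after values were seen. Nothing says that libraries of a group came from separate passages, so p measures the spread between these libraries, which may be technical.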

Additional observations from a re-analysis of the deposited data

Results flagged for a closer look

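Within groups of 4 libraries, the highest or lowest library was compared with the others by its gap over the range (Dixon's 95% limit, 0.829), over 40 checks of 10 genes in 4 groups. Chance alone marks about 1 group in 20, and 5 were marked. Peg3 in DMSO at 6 days was 103 CPM in replicate 4, against 78.9 to 80.2 CPM in the other 3. Dlk1 was marked in every group because a single library had counts: 0.0434 CPM in DMSO at 3 days (replicate 4), 0.0546 in DOX at 3 days (replicate 4), 0.0460 in DMSO at 6 days (replicate 2) and 0.0821 in DOX at 6 days (replicate 2), with the other 3 libraries of each group at 0. These Dlk1 values are 1 or 2 counts.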

How the results depend on the processing

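Dropping the fold threshold raised the calls from 1658 to 5982 at 3 days, from 2856 to 6702 at 6 days and from 0 to 62 in DMSO over time; Peg10 at 3 days then passed (adjusted p = 0.0324). DESeq2 called 1019 genes at 3 days. By limma on log2(TPM + 1), 686 genes were called at 3 days (85 higher, against 702 of 1658) and 1295 at 6 days. The median of all genes was then −0.15 at 3 days, and 1 gene of the set (Peg3) was called. On that scale H19 at 6 days was −0.32, since the added 1 TPM exceeds its level. Keeping every gene with 1 count in any library gave 6 genes over time. With a length offset Peg3 lost its 3-day call (−0.40, adjusted p = 0.0775), as it did with the replicate block added (0.0626). Leaving out 1 library gave 1366 to 2295 genes at 3 days and 2545 to 3064 at 6 days. At 3 days 3 genes of the set were called each time. H19 at 3 days lay between −0.51 and −0.18 over its alternatives. Igf2r at 3 days, which was not called, changed sign from −0.09 to 0.15 with the length offset, with and without the replicate block, and no called value reversed. H19, with 8 to 29 counts per library, is limited by depth.

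Equal replicate numbers did not pair the libraries: the mean correlation of their deviations was −0.0953 at 3 days and −0.122 at 6 days, and 0 libraries correlated best with their own number. The replicate block gave 1570 genes at 3 days, 2767 at 6 days and 0 over time, and 3 genes of the set were called at 3 days.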
